A study of Mus musculus with 24 samples.

Results

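Tmod3, Arhgap31, Pgap2 and Snrpd3 are 4 genes listed for probe sets of the same microarray that disagreed in mouse lung. Pgap2 was not called in both directions in any comparison below. The 4 genes were chosen by measured differences between groups of these same arrays. Which comparison chose each gene is not recorded. Diesel exhaust against air in saline-treated mice and ovalbumin against saline are therefore both treated as used in the choice. They are given below as descriptions, with no p-value for single members. A call (adjusted p under 0.05), kept or lost, or a count of small p-values in them describes the fit and is not a test of the members. The members were found as every probe set of the deposited value table whose single annotated symbol was 1 of these genes. This gave 11 probe sets of 22626, and 10 of them passed the limit on dim probe sets that left 13575 for testing.

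The study measured lung RNA of mice on 24 arrays, 4 in each of 6 groups. Mice breathed filtered air or diesel exhaust (DE) at 500 or 2000 ug/m3 for 4 hours a day on 5 days, and were treated on 3 days with saline or with 100 ug of ovalbumin (OVA), a protein used to provoke allergic airway disease. The 6 groups are air saline, DE 500 saline, DE 2000 saline, air OVA, DE 500 OVA and DE 2000 OVA. The labels state neither strain, sex and age nor whether the 4 arrays of a group came from separate animals, so p-values measure the spread between these samples, which may be technical.

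A probe set is a group of short probes that reads a stretch of a transcript, most often near its 3′ end. The labelled RNA is copied from the poly(A) tail, so a stretch far from the tail gives less signal where RNA is broken or copying stops early. Transcripts of a gene can also end or splice at different places, and probe sets then read different sets of its transcripts. In probe set names, a plain "_at" stands for probes meant for 1 transcript, "_a_at" for probes shared by transcripts of a gene, and "_s_at" for probes that can be shared with transcripts of other genes. Levels of different probe sets cannot be set against each other, so each is compared only with itself across arrays, or as a change of the within-array ratio between a pair of them.

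The annotation gave 1 source sequence for the Tmod3 probe sets 1423088_at and 1423089_at and none for 1438556_a_at. All 3 Pgap2 probe sets were designed on 1 source, as were the Snrpd3 probe sets 1422884_at and 1422885_at, while the Arhgap31 probe sets had 1 each. RefSeq (GRCm38.p6) lists 27 transcripts of Pgap2, 2 of Tmod3 and 1 each of Arhgap31 and Snrpd3. Pgap2 is thus the member with the most annotated forms, and its transcripts start in separate regions of chromosome 7. The sequences below are the 250 bases before the most upstream listed start in each region, shown because listed transcripts start in both regions. Its forms can also part by splicing or at their ends, which is not shown. They are from RefSeq, GRCm38.p6, + strand, at chr7:102209923-102210172 and chr7:102222778-102223027, 5′ to 3′, and the capitals mark matches on either strand to 3 motifs, and matches to different motifs did not overlap in either region. The motifs were the TATA box, written TATAAA, the CCAAT box by its name, and the core of the GC box, which is GGGCGG.
Pgap2 upstream region: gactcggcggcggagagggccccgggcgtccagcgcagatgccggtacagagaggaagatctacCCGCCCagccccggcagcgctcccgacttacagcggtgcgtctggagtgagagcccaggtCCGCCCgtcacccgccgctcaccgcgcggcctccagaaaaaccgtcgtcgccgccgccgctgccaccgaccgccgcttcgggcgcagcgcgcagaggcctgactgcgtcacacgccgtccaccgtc
Pgap2 downstream region: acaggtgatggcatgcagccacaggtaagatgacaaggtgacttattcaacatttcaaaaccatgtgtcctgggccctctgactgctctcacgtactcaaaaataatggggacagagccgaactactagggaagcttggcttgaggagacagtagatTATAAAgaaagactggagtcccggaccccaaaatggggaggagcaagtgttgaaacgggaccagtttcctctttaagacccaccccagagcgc
The upstream region held 2 matches to the GC box and had a GC content of 73.2%, and the downstream region held 1 match to the TATA box and had a GC content of 49.6%. Of 32851 such windows of the mouse genome, 32.7% held the GC box, 33.8% the CCAAT box and 12.4% the TATA box. Other listed starts of the same regions did not keep this contrast. Of the other upstream windows, 1 held 2 matches to the CCAAT box and 1 to the GC box and the other held 0 to any, and the other downstream window held 1 match each to the TATA box and the GC box. No probe set could be assigned to a start from the files.

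Each array also carries probe sets for the 3′ and the 5′ end of Gapdh and actin, and the mean of the log2 3′/5′ ratios of these, called the control ratio here, rises where 5′ signal is lost. It was 1.84 ± 1.28 (SD, n = 12) in saline and 0.21 ± 0.58 (n = 12) in OVA, so the arms differed by -1.63 (exact permutation test within exposures, two-sided, p = 0.000262). The saline arrays spanned 0.10 to 4.38, and 11 OVA arrays lay between -0.13 and 0.20. DE 500 saline replicates 1 and 4 stood apart at 4.38 and 3.77, against 0.33 and 0.10 in replicates 2 and 3, and DE 2000 OVA replicate 4 stood apart at 2.02. For many of the values below that leaving out these 3 arrays moved, the value without them stands beside it. This was not done for every value, so a value printed alone can also depend on them. The surfactant gene Sftpc had a mean log2 signal of 14.82 and the club cell gene Scgb1a1 of 14.57, both high in all arrays. Not every lung marker was high: of the alveolar macrophage markers, Chil3 averaged 11.75, Mrc1 9.89 and Marco 4.54. Of the heart muscle markers, Myh6 averaged 11.42, Myl7 12.02 and Nppa 9.89, the last between 6.68 and 11.37, and the part of heart tissue in the values below was not tested.

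Tmod3 encodes tropomodulin 3, which caps the slow-growing end of actin filaments. All values that follow are log2 signals in order of replicates 1 to 4. With 1438556_a_at, air saline gave 8.87, 9.06, 8.60 and 9.83. DE 500 saline gave 10.77, 10.02, 10.01 and 10.45, and DE 2000 saline gave 10.21, 10.17, 10.07 and 9.89. Every exhaust array in saline lay above every air saline array, the closest being air replicate 4. In OVA the same probe set gave 9.43, 9.24, 9.46 and 9.43 in air. It gave 9.58, 9.48, 9.19 and 9.38 in DE 500 and 9.52, 9.46, 9.33 and 9.12 in DE 2000. The 3 OVA groups overlapped one another and lay within the range of the air saline arrays.

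With 1423088_at, Tmod3 gave 8.74, 9.27, 8.24 and 9.17 in air saline. The DE 500 saline arrays split, at 7.57, 9.94, 10.09 and 7.72, and DE 2000 saline gave 8.09, 8.51, 8.87 and 8.63. The low pair in DE 500 saline, replicates 1 and 4, are the arrays with the highest control ratios, and the high pair are those with the lowest ratios of the saline arm. In OVA the values were 10.41, 10.16, 10.39 and 10.47 in air, 10.55, 10.17, 10.39 and 10.45 in DE 500, and 10.45, 10.31, 10.05 and 9.25 in DE 2000. OVA arrays were high, with replicate 4 of DE 2000 the lowest. With 1423089_at the order was similar: it ranged from 7.08 to 8.13 in air saline, gave 7.56, 9.11, 9.25 and 7.64 in DE 500 saline and 7.86 to 8.07 in DE 2000 saline. In OVA, 11 arrays gave 9.04 to 9.78 and DE 2000 replicate 4 gave 7.11. Over the 24 arrays the log2 signals of 1423088_at and 1423089_at had a Pearson r of 0.88, against -0.44 for 1423088_at with 1438556_a_at (n = 24; the arrays share groups, scaling and RNA quality).

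Against air in saline, Tmod3 read by 1438556_a_at was higher by 1.22 ± 0.20 (log2 difference ± SE) in DE 500 and by 1.0 ± 0.20 in DE 2000. In the same comparisons 1423088_at differed by -0.03 ± 0.42 and -0.33 ± 0.42, and 1423089_at by 0.66 ± 0.42 and 0.24 ± 0.42. A probe set is called here where its adjusted p (limma, Benjamini-Hochberg over all 13575) is under 0.05. In DE 500 saline 1438556_a_at was the 1 member called, where 0.00737% of all tested probe sets, that is 1 in all, were called. In DE 2000 saline it was called with Pgap2 1424614_at, 2 of 10 members, where 0.147% of all were called. Nothing is read from these counts, because the contrasts are treated as used in the choice. Without the 3 arrays that stood apart, which leaves DE 500 saline with replicates 2 and 3 only, the differences of DE 500 from air became 1.16 for 1423088_at, 1.45 for 1423089_at and 0.93 for 1438556_a_at. All 3 Tmod3 probe sets were then higher in DE 500, and the change of the 1423088_at to 1438556_a_at ratio went from -1.25 to 0.23. In DE 2000 saline no array stood apart: that ratio was lower by -1.33 ± 0.49, and its DE 2000 and air arrays did not overlap. With the control ratio as a covariate the DE 2000 change of the ratio was -1.40. Leaving out single arrays ended the call of 1438556_a_at in DE 500 for 5 arrays (air saline replicates 1, 2 and 3, DE 500 saline replicates 1 and 4), with differences of 1.06 to 1.21, and in DE 2000 for 7 arrays (all but air saline replicate 4), with 0.83 to 1.06.

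Between OVA and saline, Tmod3 probe sets again parted. In air, 1423088_at was higher in OVA by 1.50 ± 0.42 and 1423089_at by 1.55 ± 0.42, and 1438556_a_at by 0.30 ± 0.20. At DE 500, 1423088_at was higher by 1.56 while 1438556_a_at was lower by -0.91 ± 0.20, and at DE 2000 the values were 1.49 and -0.73. Tmod3 was therefore called higher by 1 probe set and lower by another at both exhaust levels. At DE 500 this rested on saline replicates 1 and 4: without the arrays that stood apart the differences were 0.38 for 1423088_at and -0.61 for 1438556_a_at, and both calls were lost. At DE 2000 they were 1.74 and -0.65 without DE 2000 OVA replicate 4, and both kept their calls. There 1423089_at was higher by 0.93 ± 0.42, not called, and by 1.53 without that array, when it was called. Averaged over the 3 exposures the differences were 1.52 ± 0.24, 1.11 ± 0.24 and -0.44 ± 0.11. With the control ratio as a covariate they were 0.55, 0.24 and -0.36, and 1423088_at alone of the 3 kept its call. Without the 3 arrays that stood apart the averages were 1.21, 1.05 and -0.32, while the Tmod3 ratio of 1423088_at to 1438556_a_at at DE 500 went from 2.47 to 0.99 and lost its call. Without air OVA replicate 1 or 4 or air saline replicate 1 or 3, the call of Tmod3 1423088_at in air was lost (1.29 to 1.48), and without air OVA replicate 1 or air saline replicate 1 or 3 that of 1423089_at (1.33 to 1.52). At DE 500 that of 1423088_at was lost without DE 500 OVA replicate 1 or DE 500 saline replicate 1 or 4 (1.14 to 1.51), and at DE 2000 without replicate 1 of either group (1.34 to 1.35).

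**Figure D1:**
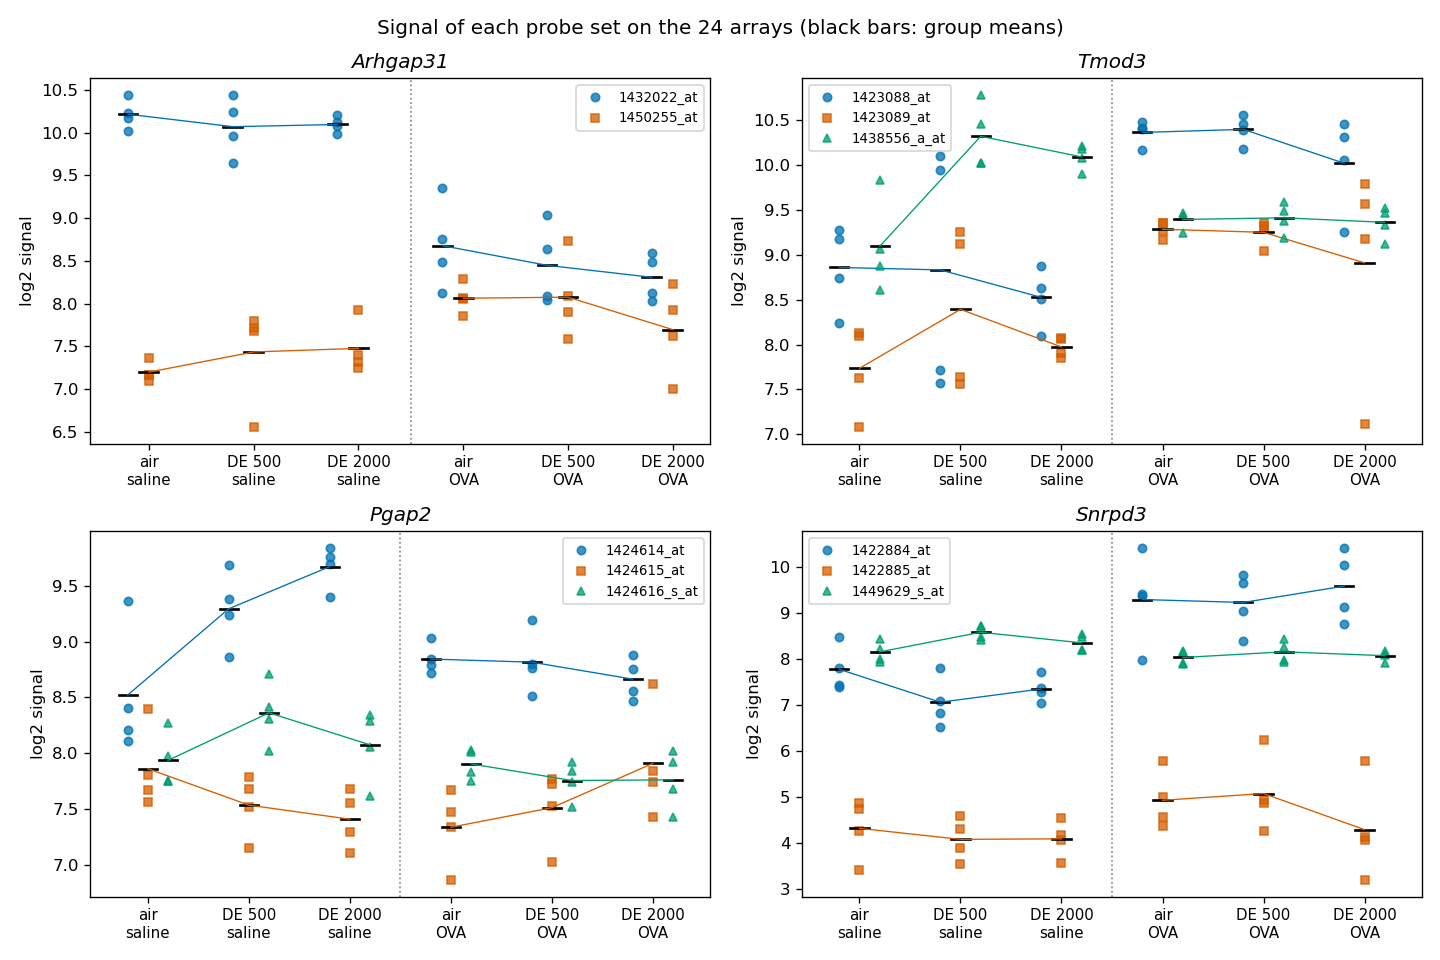
Log2 signal (vertical axis) of the 11 probe sets of Arhgap31, Tmod3, Pgap2 and Snrpd3 on each of 24 arrays, by group (horizontal axis). Each symbol is 1 array, black bars are group means, thin lines join group means within an arm and the dotted line parts saline from OVA. Heights of different probe sets are not comparable. The split of 1423088_at in DE 500 saline (7.57 and 7.72 against 9.94 and 10.09) can be seen beside the 4 high values of 1438556_a_at.

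Arhgap31 encodes a GTPase-activating protein that switches off Cdc42 and Rac1, small GTPases that steer actin at the cell edge. With 1432022_at, saline arrays were high: 10.02, 10.17, 10.23 and 10.44 in air, 10.44, 9.96, 9.64 and 10.24 in DE 500, and 10.08, 9.98, 10.20 and 10.12 in DE 2000. OVA arrays gave 8.12, 8.75, 9.35 and 8.49 in air, 8.04, 8.08, 8.64 and 9.03 in DE 500, and 8.04, 8.12, 8.49 and 8.59 in DE 2000. The highest OVA array (9.35) lay below the lowest saline array (9.64), so the arms did not overlap. This was the 1 of 10 member probe sets with no overlap between the 12 OVA and 12 saline arrays, against 1.77% of all tested probe sets.

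The other Arhgap31 probe set, 1450255_at, pointed the other way. It gave 7.17, 7.10, 7.36 and 7.17 in air saline, 6.56, 7.79, 7.68 and 7.71 in DE 500 saline, and 7.25, 7.40, 7.32 and 7.93 in DE 2000 saline. In OVA it gave 7.85, 8.06, 8.29 and 8.05 in air, 8.08, 7.59, 7.90 and 8.73 in DE 500, and 7.92, 7.63, 8.23 and 7.0 in DE 2000. In air the groups did not overlap, OVA being higher, and at DE 500 and DE 2000 they did. How many of all probe sets were without overlap between OVA and saline in air was not counted, so nothing is read from this. DE 500 saline replicate 1 and DE 2000 OVA replicate 4, each with a high control ratio, were the lowest arrays of their arms.

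OVA minus saline for Arhgap31 1432022_at was -1.54 ± 0.23 in air, -1.62 ± 0.23 at DE 500 and -1.79 ± 0.23 at DE 2000, a signal 2.90-, 3.08- and 3.45-fold lower. For 1450255_at it was 0.86 ± 0.28, 0.64 ± 0.28 and 0.22 ± 0.28. Without the 3 arrays that stood apart, 1450255_at differed by 0.34 at DE 500 and 0.45 at DE 2000, and 1432022_at by -1.35 and -1.88. The within-array ratio of 1450255_at to 1432022_at rose by 2.40 ± 0.35, 2.26 ± 0.35 and 2.01 ± 0.35. It lay between -3.88 and -1.97 in saline and between -1.59 and 0.05 in OVA, the 1 member ratio of 6 without overlap between the arms, against 1.1% of all ratios. The averaged ratio change of 2.22 ± 0.20 was 1.71 with the control ratio as a covariate and 2.14 without the 3 arrays that stood apart. The averaged difference of 1432022_at was -1.44 with the covariate and kept its call, and that of 1450255_at was 0.27 and lost it. Such a fit cannot part OVA from RNA quality. The call of 1450255_at in air was also lost on leaving out any 1 of its 8 arrays, with differences of 0.79 to 0.93. Exhaust in saline moved the Arhgap31 probe sets by -0.15 and 0.24 in DE 500 and by -0.12 and 0.28 in DE 2000, with SEs of 0.23 and 0.28. Without DE 500 saline replicates 1 and 4 the DE 500 values were -0.41 and 0.54, farther apart and not called.

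**Figure D2:**
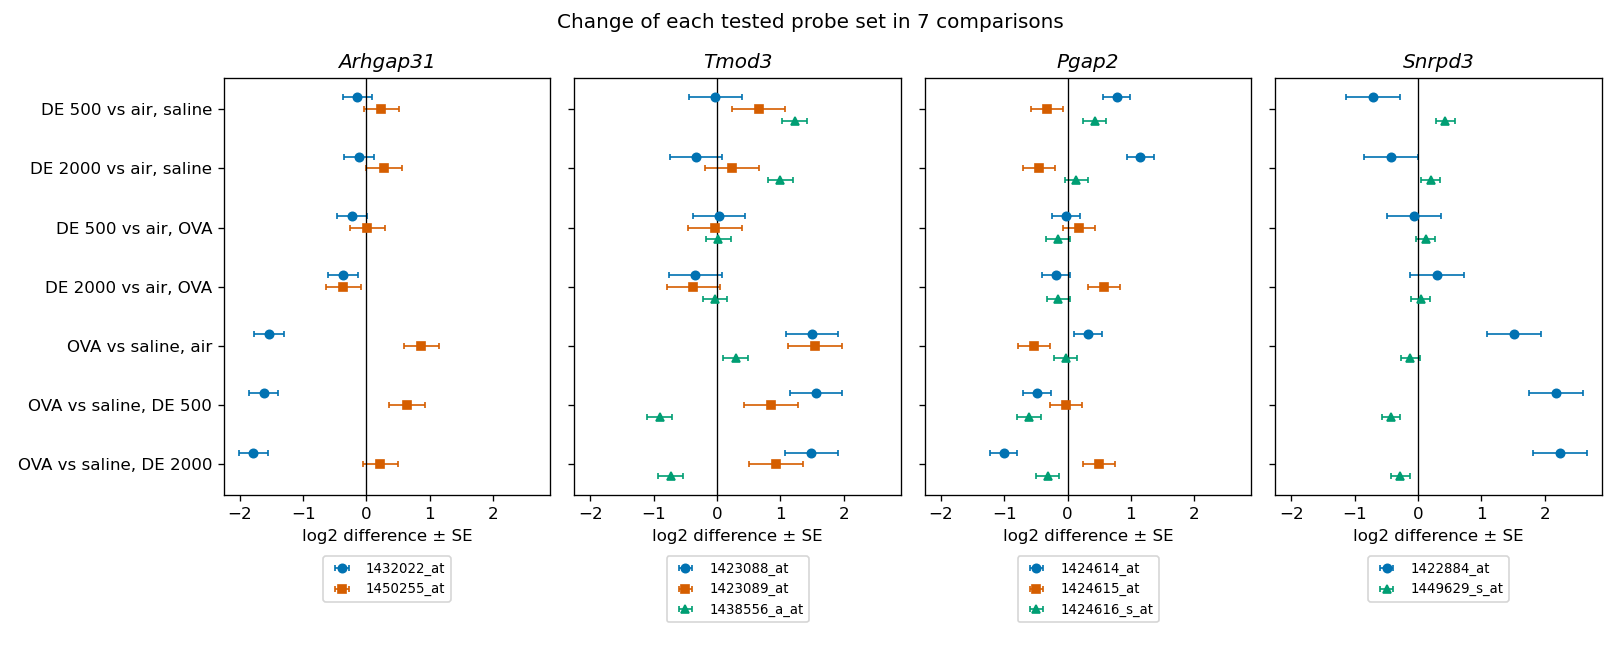
Log2 difference (horizontal axis) with its standard error for the 10 tested probe sets in 7 comparisons (rows), from the fit to 24 arrays; the vertical line marks 0. Probe sets of a gene lie on opposite sides of 0 for Arhgap31 and Snrpd3 in all 3 comparisons of OVA with saline. They also do for Tmod3 at DE 500 and DE 2000, and for Pgap2 in air and at DE 2000. In the rows of exhaust in OVA the points lie between -0.37 and 0.57.

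Pgap2 encodes a Golgi protein that takes part in remodelling the lipid of GPI anchors, by which many proteins are held on the cell surface. With 1424614_at, air saline gave 8.11, 8.40, 8.20 and 9.37. DE 500 saline gave 9.69, 9.39, 8.86 and 9.24, and DE 2000 saline gave 9.69, 9.84, 9.76 and 9.40. All DE 2000 arrays lay above all air arrays, replicate 4 of air being the nearest, and DE 500 overlapped with that 1 air array. With 1424615_at the values were 7.56, 7.67, 7.81 and 8.40 in air, 7.79, 7.68, 7.52 and 7.15 in DE 500 and 7.68, 7.11, 7.29 and 7.56 in DE 2000. These groups overlapped, with DE 2000 at the low end. The third probe set, 1424616_s_at, gave 7.97, 7.75, 7.75 and 8.27 in air, 8.71, 8.30, 8.02 and 8.41 in DE 500 and 8.05, 8.34, 8.29 and 7.62 in DE 2000, again with overlap.

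In DE 2000 saline, Pgap2 1424614_at was thus higher than in air by 1.15 ± 0.22, a 2.22-fold signal, while 1424615_at differed by -0.45 ± 0.25 and 1424616_s_at by 0.14 ± 0.19. In DE 500 the differences were 0.77 ± 0.22, -0.33 ± 0.25 and 0.43 ± 0.19, and 0.60, -0.26 and 0.23 without replicates 1 and 4. The ratio of 1424615_at to 1424614_at was lower by -1.61 ± 0.29 in DE 2000, the 1 of 6 member ratios called there, against 0.144% of all 4173 ratios. It ran from -0.97 to -0.40 in air, from -2.09 to -1.34 in DE 500 and from -2.73 to -1.84 in DE 2000, so neither exhaust group overlapped with air. In DE 500, 1 of 6 member ratios was without overlap, against 2.8% of all ratios, and in DE 2000, 4 of 6, against 6.01%. Of the probe sets, 1 of 10 was without overlap in DE 500 (3.45% of all) and 2 of 10 in DE 2000 (4.32%), and these values are treated as used in the choice. The Pgap2 DE 2000 ratio change was -1.60 with the control ratio as a covariate, and the control ratio itself was 1.74 ± 0.83 (SD, n = 4) in air saline and 1.63 ± 0.31 in DE 2000 saline. Its call was lost on leaving out any of 6 arrays (air saline replicates 1, 2 and 3, DE 2000 saline replicates 1, 2 and 3), with changes of -1.69 to -1.45, and that of 1424614_at on leaving out any of 7 (all but air saline replicate 4), with 1.01 to 1.24.

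The OVA arrays were read by the same Pgap2 probe sets. For 1424614_at, air gave 9.03, 8.84, 8.79 and 8.72, DE 500 gave 8.80, 8.51, 9.19 and 8.77, and DE 2000 gave 8.56, 8.88, 8.76 and 8.46. For 1424615_at, air gave 7.34, 7.67, 6.86 and 7.48, DE 500 gave 7.77, 7.53, 7.72 and 7.03, and DE 2000 gave 7.74, 7.84, 7.43 and 8.62. The groups overlapped for both, and the 8.62 came from replicate 4 of DE 2000, the OVA array with the high control ratio. For 1424616_s_at the OVA arrays ran from 7.43 to 8.02 with overlap among all 3 exposures. OVA minus saline for 1424614_at was 0.32 ± 0.22 in air, -0.48 ± 0.22 at DE 500 and -1.01 ± 0.22 at DE 2000, and for 1424615_at it was -0.53, -0.02 and 0.50 (± 0.25 each). For 1424616_s_at it was -0.03, -0.61 and -0.31 (± 0.19 each), on the same side of 0 as 1424614_at at both exhaust levels, and it was the 1 Pgap2 probe set called at DE 500. Without the 3 arrays that stood apart, 1424616_s_at differed by -0.41 at DE 500 and lost its call. Without them, 1424614_at differed by -0.31 at DE 500 and -0.94 at DE 2000, and 1424615_at by 0.26 at DE 2000. The exhaust effect on the ratio of 1424615_at to 1424614_at was higher in OVA than in saline by 2.36 ± 0.40 at DE 2000. It was the 1 of 6 member ratios called for that interaction, where 0.024% of all ratios, that is 1 in all, were called. This interaction is built from contrasts treated as used in the choice, so nothing is read from the call. The call was lost on leaving out any of 8 arrays (air OVA replicates 1 and 3, DE 2000 OVA replicate 1, air saline replicates 1, 2 and 3, DE 2000 saline replicates 2 and 3), with 2.20 to 2.38. At DE 500, 0 of 6 ratios and 0% of all were called for the interaction (limma; 1 member ratio and 113 of all at unadjusted p under 0.05).

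Snrpd3 encodes a protein of the Sm ring, the core of the spliceosomal small nuclear ribonucleoproteins. With 1422884_at, saline arrays gave 7.80, 8.48, 7.39 and 7.43 in air, 6.52, 7.08, 7.81 and 6.83 in DE 500, and 7.36, 7.72, 7.28 and 7.03 in DE 2000. OVA arrays gave 9.37, 10.42, 7.98 and 9.43 in air, 9.67, 9.83, 9.05 and 8.39 in DE 500, and 9.14, 10.42, 10.04 and 8.76 in DE 2000. OVA arrays were high apart from air replicate 3 at 7.98 and DE 500 replicate 4 at 8.39, which lay below the highest saline array. At DE 500 and DE 2000 the OVA and saline groups did not overlap. The share of all probe sets without such overlap within an exposure was not counted, so nothing is read from this.

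Snrpd3 read by 1449629_s_at ranged less. It gave 8.22, 8.01, 8.45 and 7.95 in air saline, 8.48, 8.73, 8.42 and 8.72 in DE 500 saline and 8.56, 8.47, 8.19 and 8.20 in DE 2000 saline. In OVA it gave 7.89, 8.16, 8.18 and 7.91 in air, 7.93, 7.98, 8.45 and 8.27 in DE 500, and 7.93, 8.18, 8.09 and 8.10 in DE 2000. The arms overlapped, with DE 500 saline at the high end. The remaining probe set, 1422885_at, has the same source sequence as 1422884_at but a geometric mean signal of 22.0, which placed it at the 11.8th percentile of all probe sets, and it was not tested. Its arrays ran from 3.39 to 4.87 in air saline and from 4.35 to 5.79 in air OVA, dim values with overlap.

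OVA minus saline for Snrpd3 1422884_at was 1.52 ± 0.43 in air, 2.17 ± 0.43 at DE 500 and 2.24 ± 0.43 at DE 2000, and for 1449629_s_at -0.12 ± 0.15, -0.43 ± 0.15 and -0.28 ± 0.15. The average was 1.98 ± 0.25 for the first and -0.28 ± 0.09 for the second, both called. The ratio of 1449629_s_at to 1422884_at fell by 1.64 ± 0.47, 2.60 ± 0.47 and 2.52 ± 0.47 in the 3 exposures. With the control ratio as a covariate the averages were 1.54 for 1422884_at, which kept its call, and -0.21 for 1449629_s_at, which lost it. Without the 3 arrays that stood apart they were 1.94 and -0.28. At DE 500 the difference of 1422884_at was 1.79 without them and that of the ratio -2.20, and both lost their calls. At DE 2000 the difference of 1422884_at was 2.52 without them. In DE 500 saline, Snrpd3 1422884_at differed from air by -0.72 ± 0.43 and 1449629_s_at by 0.43 ± 0.15, and by -0.33 and 0.42 without replicates 1 and 4. The calls of 1422884_at in air rested on single arrays: without air OVA replicate 1, 2 or 4 or air saline replicate 1 or 3 it was lost, with differences of 1.15 to 1.53. In bulk lung, fewer cells of a type and less RNA per cell cannot be told apart for any of these values.

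Over the members, OVA against saline called 5 of 10 probe sets in air (14.8% of all tested), 5 of 10 at DE 500 (12.5%) and 5 of 10 at DE 2000 (18.1%). Averaged over the exposures it called 9 of 10, against 46.3% of all tested, with 4 higher (22.7% of all) and 5 lower (23.6%), all but Pgap2 1424615_at. Of the 6 ratios it called 2 in air (11% of all ratios), 4 at DE 500 (14.5%), all 6 at DE 2000 (12.7%) and 4 on average (48.7%). Without the 3 arrays that stood apart, 1 of 10 probe sets and 1 of 6 ratios were called at DE 500. The shares of all probe sets and ratios called without them are not given here, so nothing is read from this drop. These contrasts are treated as used in the choice, so the counts carry no test. Interactions of exhaust with OVA gave 0 of 10 called probe sets at each level and 0% of all tested (limma; 3 members at unadjusted p under 0.05 at each level, against 419 of all at DE 500 and 829 at DE 2000). In DE 500 saline 0 of 6 ratios were called, and 0% of all (3 members and 290 of all at unadjusted p under 0.05).

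Opposite signs alone are common on this array. Of 2834 genes with at least 2 tested probe sets, 49.8% had probe sets on both sides of 0 for the averaged OVA difference, and 12.63% (358 genes) were called in both directions, Arhgap31, Tmod3 and Snrpd3 among them. In single exposures such genes were fewer: 36 in air, with Arhgap31, 25 at DE 500, with Tmod3 (whose calls there rested on the arrays that stood apart), and 50 at DE 2000, with Tmod3. No gene was called in both directions in an exhaust comparison. The range between the probe sets of a gene had a median of 0.48 and a 95th percentile of 1.72 for the averaged OVA difference. It was 2.26 for Snrpd3, 2.22 for Arhgap31 and 1.96 for Tmod3, at percentiles 98.6, 98.4 and 97.2, and 0.37 for Pgap2, at percentile 39.4. In DE 2000 saline the order turned: Pgap2 had a range of 1.61, at percentile 99.4, and Tmod3 of 1.33, at 98.7, while Arhgap31 had 0.40, at 70.8. The genes were chosen by such differences, so these percentiles and the calls in both directions follow the choice and test nothing.

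**Figure D3:**
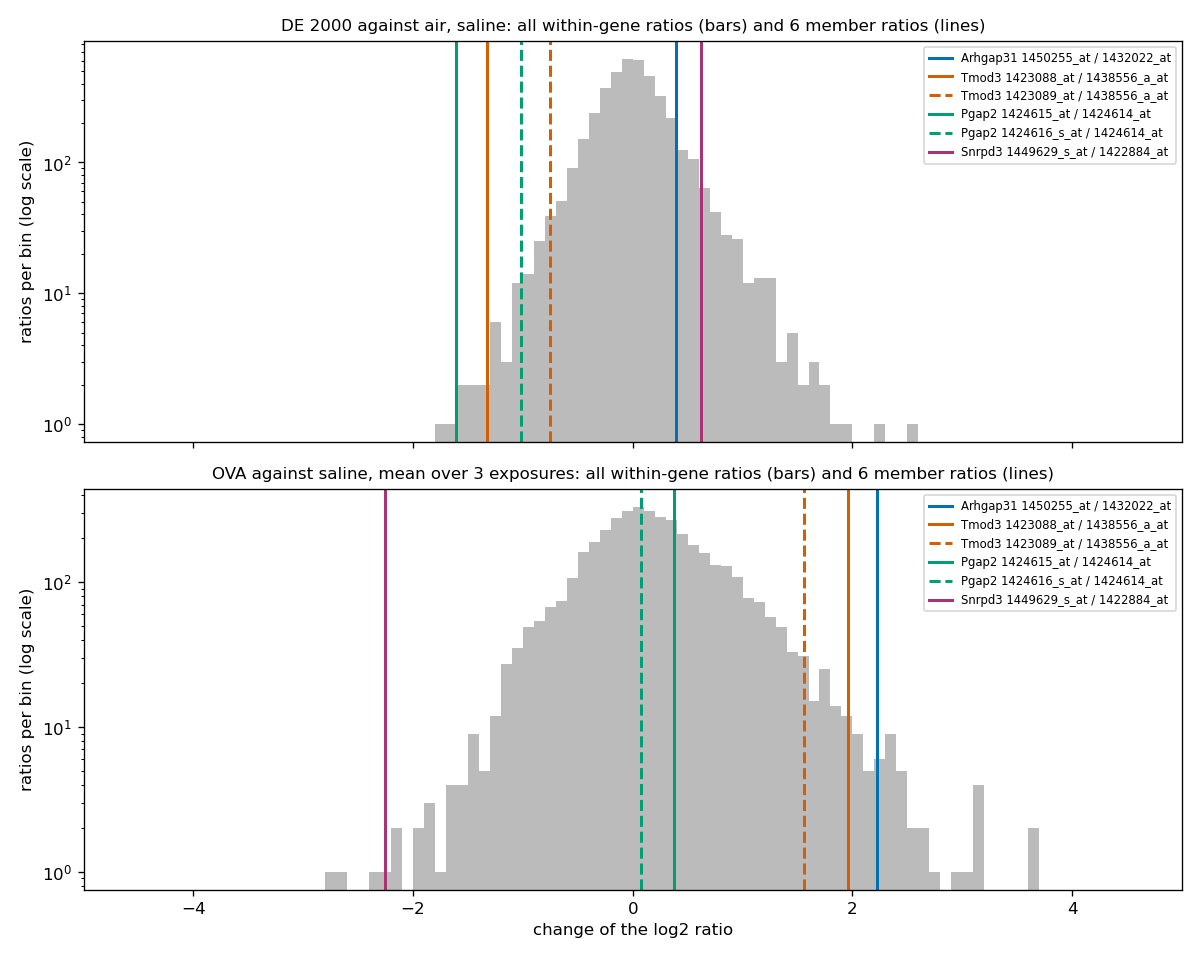
Change of the within-gene log2 ratio (horizontal axis) for all 4173 ratios in bins of 0.1 (grey bars, log scale), in DE 2000 against air in saline (top) and OVA against saline averaged over 3 exposures (bottom). Coloured lines mark the 6 member ratios, whose genes were chosen with such differences known. Pgap2 lies at the left edge at the top (-1.61) and near the centre at the bottom (0.37), where Arhgap31 (2.22), Tmod3 (1.96 and 1.56) and Snrpd3 (-2.26) lie in the tails.

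Exhaust within the OVA arm is not among the contrasts treated as used in the choice, although its arrays also enter the OVA contrasts above. In DE 500 OVA, 0 of 10 member probe sets and 0 of 6 ratios were called (limma; 0 and 0 at unadjusted p under 0.05), against 0% of all probe sets and 0% of all ratios (125 and 28 at unadjusted p under 0.05). In DE 2000 OVA 0 of 10 and 0 of 6 were called (1 and 1 at unadjusted p under 0.05), against 0.0221% of all probe sets and 0% of all ratios (1103 and 287 at unadjusted p under 0.05). The member with the smallest p was Pgap2 1424615_at, higher by 0.57 ± 0.25 in DE 2000 OVA (limma adjusted p = 0.593), a value that includes the 8.62 of replicate 4 and became 0.34 without the arrays that stood apart. Tmod3 1438556_a_at, which was higher by 1.0 in DE 2000 saline, differed by -0.03 ± 0.20 in DE 2000 OVA (limma adjusted p = 0.971) and by 0.02 ± 0.20 in DE 500 OVA. Pgap2 1424614_at, higher by 1.15 in DE 2000 saline, differed by -0.18 ± 0.22 there (limma adjusted p = 0.826). The difference between the arms in these effects was -1.03 ± 0.28 for Tmod3 1438556_a_at and -1.33 ± 0.31 for Pgap2 1424614_at, neither called. Without air saline replicate 4 they were -1.27 and -1.61, and both were called. These differences between the arms contain the saline contrasts treated as used in the choice, so nothing is read from them or their calls. In OVA, no member probe set or ratio was without overlap between an exhaust group and air, against 1.5% of probe sets and 1.61% of ratios for DE 500 and 4.35% and 3.45% for DE 2000.

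The ratios were set against the control ratio within each arm, 12 correlations in all, with permutation p-values adjusted over the 12. Arrays were permuted freely across the exposure groups of an arm. The same ratios enter contrasts treated as used in the choice, so these p-values describe the relation and are not a test of the members. In saline, Tmod3 1423088_at to 1438556_a_at had r = -0.79 (n = 12, permutation p = 0.00247, adjusted 0.0148; rho = -0.77, permutation p = 0.00472, adjusted 0.0283). Tmod3 1423089_at to 1438556_a_at had r = -0.84 (permutation p = 0.00073, adjusted 0.00876; rho = -0.79, permutation p = 0.00304, adjusted 0.0283). Where the control ratio was high, the _at probe sets of Tmod3 were low relative to 1438556_a_at. Without DE 500 saline replicates 1 and 4, the 2 arrays farthest from the median, r was -0.43 and -0.60 (adjusted permutation p = 0.532 for each), so the relation rests on those arrays. On deviations from group means, permuted within groups, r was -0.94 and -0.94 (adjusted permutation p = 0.147 and 0.175). The Arhgap31 ratio had r = -0.59 (n = 12, permutation p = 0.0423, adjusted 0.0964; rho = -0.35) and the Snrpd3 ratio r = 0.58 (permutation p = 0.0484, adjusted 0.0964; rho = 0.52), neither past 0.05 after adjustment. For the Pgap2 ratios r was -0.11 and 0.13 (adjusted permutation p = 0.733 for each; rho = -0.15 and 0.13).

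In OVA the control ratio hardly varied outside DE 2000 OVA replicate 4, and no correlation passed 0.05 after adjustment. The Tmod3 ratios had r = -0.83 and -0.92 but rho = -0.02 and -0.05 (n = 12, adjusted permutation p = 0.0964 for both r), and without the 2 arrays farthest from the median r was 0.18 and 0.42. For Arhgap31 r went from -0.74 to -0.15 (n = 12), and for the Pgap2 ratio of 1424615_at to 1424614_at from 0.76 to -0.02. Snrpd3 had r = 0.24. Such relations were common among all 4173 ratios, where the median size of r was 0.525 in saline and 0.531 in OVA. In saline 80.4% and 87.4% of all ratios had a smaller r in size than the Tmod3 ratios, 57.6% than Arhgap31, 55.8% than Snrpd3, and 9.5% and 11.3% than Pgap2. Since the arms differ in the control ratio, OVA treatment and RNA quality cannot be told apart as a source of the OVA differences of these probe sets.

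**Figure D4:**
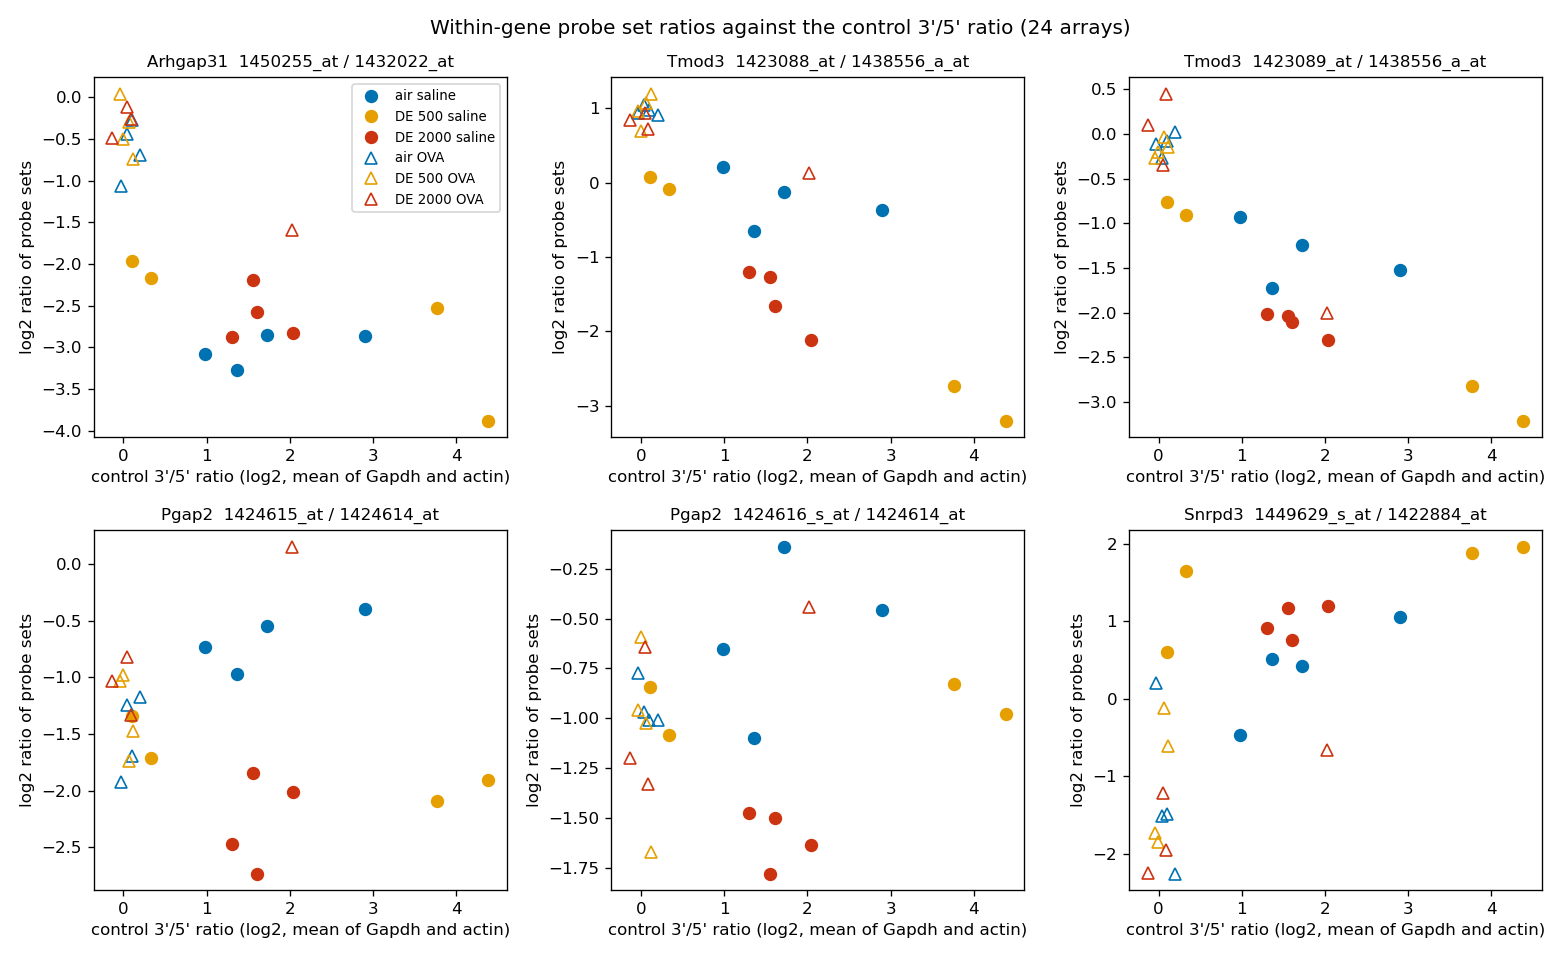
Log2 ratio between probe sets of a gene (vertical axis) against the control ratio (log2 3′/5′, mean of Gapdh and actin; horizontal axis) on 24 arrays. Filled circles are saline and open triangles OVA arrays, coloured by exposure. For Tmod3, DE 500 saline replicates 1 and 4 lie at the lower right (control ratios 4.38 and 3.77) and replicates 2 and 3 at the upper left (0.33 and 0.10); for Pgap2 the DE 2000 saline arrays lie below air saline at similar control ratios.

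Genes with the most similar log2 signal over the 24 arrays differed between probe sets of a gene. For Tmod3 1423088_at they were 2610005L07Rik (Pearson r = 0.98), Zfp207 (0.98) and Tmed7 (0.98), and for 1423089_at Capza2, an actin capping protein subunit (0.97), Vmp1 (0.97) and Prnp (0.97). For 1438556_a_at they were Eif2ak2 (0.91), Kitl (0.90) and Hdlbp (0.89). Arhgap31 1432022_at was most like Thrap3 (0.98), Neat1 (0.97) and Nisch (0.96), and 1450255_at most like Eif2ak1 (0.85), Prps2 (0.85) and Rnf2 (0.83). For Pgap2 the closest gene was Rnf20 (0.89) for 1424614_at, Cox6a2 (0.71) for 1424615_at and Oxsr1 (0.79) for 1424616_s_at. For Snrpd3 it was Atraid (0.93) for 1422884_at and Ralgps2 (0.78) for 1449629_s_at. No gene appeared in the 3 closest of more than 1 member probe set, and these values share the groups and the RNA quality of the arrays.

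Other genes of the same pathways were read by their brightest probe set, with calls for the averaged OVA difference, where 43.63% of 8315 genes were called and the median difference was -0.03. "Higher" and "lower" here and in the next paragraph describe that probe set. Any other probe sets of these genes are not given and can differ. Of 17 tested thin filament genes of 20 listed, 6 were higher, 5 lower and 6 not called, with a median of -0.02. The actin regulators Pfn1 (1.05 ± 0.16) and Cfl2 (0.97 ± 0.08) and the tropomyosin Tpm1 (0.87 ± 0.17) were higher, and the adducin Add1 was lower (-0.30 ± 0.06). Of 12 tested genes of Cdc42 and Rac and their regulators, of 18 listed, 3 were higher and 6 lower, with a median of -0.16. Cdc42 itself was higher (0.83 ± 0.17), and the GTPase-activating protein Arhgap21 (-0.46 ± 0.06), the Cdc42 exchange factor Itsn1 (-0.68 ± 0.17) and the kinase Pak2 (-0.28 ± 0.08) were lower.

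Of 15 tested GPI anchor genes of 26 listed, 5 were higher and 2 lower, with a median of 0.12. Pigt (1.50 ± 0.31) was higher and Pigk (-0.46 ± 0.11) lower, and both encode subunits of the GPI transamidase, which attaches the anchor. Pigp (0.72 ± 0.12) and the mannose donor synthase subunit Dpm1 (0.84 ± 0.15) were higher. Of 11 tested Sm core and snRNP assembly genes of 20 listed, 1 was higher and 3 lower, with a median of -0.13. The assembly factor Smn1 was higher (0.53 ± 0.13), and the U1 protein Snrnp70 (-0.99 ± 0.13), the U2 protein Snrpa1 (-0.43 ± 0.12) and Wdr77 (-0.33 ± 0.10) were lower. In the exhaust comparisons and interactions 0 of 55 genes of these 4 lists were called (limma; 0 to 6 at unadjusted p under 0.05), where 0% to 0.11% of the 8315 genes were called. The control ratio differed between the same arms by -1.63, and its part in these list values was not tested.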

How the data were processed

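Lung RNA was measured on 24 Affymetrix arrays, 4 in each of 6 groups taken from the sample titles. Each deposited value is a linear MAS5 intensity, made by the authors from the probes of a set, per the submitters' processing notes (MAS5 version: not given in the sources used here). After dropping the top and bottom 2%, every array had a mean of 500.0, so the arrays had been scaled already. Of 22690 probe sets, 64 controls were set aside. Gene names came from the platform annotation, which can be old. Values were taken to log2 with no pseudocount, and probe sets with a mean above the 40th percentile (signal 138) were tested.

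Group means over the 24 arrays were modelled together in limma 3.58.1 (R 4.3.3; moderated by eBayes with a trend) and compared two-sided, with Benjamini-Hochberg adjustment over all tested probe sets of each of 10 comparisons. The same model was fitted to the within-array log2 ratio of each probe set to the brightest probe set of its gene, 4173 ratios in 2834 genes. Both fits were tested on simulated data. Permutation tests used scipy 1.17.1 with 100000 resamples for correlations and full enumeration for the control ratio. Tables and figures used Python 3.11.15, pandas 2.3.3 and matplotlib 3.10.9. Motifs were counted in RefSeq windows (GRCm38.p6). The number of arrays limits the precision.

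The members, gene lists and alternatives were chosen with earlier results of these data known. All probe sets of the 4 genes are named; of each related list, up to 4 called genes with the smallest p are named, and for likeness the 3 probe sets with the highest Pearson r, of which the first alone is printed for Pgap2 and Snrpd3. The alternatives tried were quantile and median scaling, other filters, a pseudocount of 32, no trend, array weights, fits of the compared groups alone, the replicate number as a block, the control ratio as a covariate and leaving out each array. The B1 covariate, the fit without 3 arrays, and 3 forms of the correlations (deviations from group means, B1 in place of the control ratio, leaving out each array) were chosen after seeing the data.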

Additional observations from a re-analysis of the deposited data

Results flagged for a closer look

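The highest or lowest of 4 arrays stood far from the others (past Dixon's 95% critical value) in 7 of 126 checks, and chance alone flags about 1 in 20. DE 2000 OVA replicate 4 had a control ratio of 2.02, with 2.09 for Gapdh and 1.95 for actin, and a log2 signal of the B1 repeat control of 12.43, each the highest of its group. Arhgap31 1450255_at was at 6.56 in DE 500 saline replicate 1. Tmod3 1438556_a_at was at 9.24 in air OVA replicate 2. The Pgap2 ratio of 1424616_s_at to 1424614_at was -0.78 (value -0.775) in air OVA replicate 3.

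The exhaust effect on the Pgap2 ratio of 1424615_at to 1424614_at differed between OVA and saline by 2.36 at DE 2000 (value 2.358). The saline side of this difference is treated as used in the choice of the gene.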

How the results depend on the processing

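Called member results with one setting changed kept direction and call in 377 cases and lost the call in 43; leaving out single arrays gave 492 and 84; the settings chosen after seeing the data gave 46 and 38, and 6 reversed. The causes were not tested. Counts of member probe sets called are given first, then those of member ratios. The shares of all probe sets or ratios called under each setting are not given here. A changed count is therefore not read as particular to the members. In DE 500 against air in saline (1 as reported) the count was 0 with median scaling, only the groups compared, array weights or no trend, and 3 without the 3 arrays apart. In DE 2000 against air in saline (2) it was 1 with median scaling or the replicate block and 0 with only the groups compared. For OVA in air (5) it was 2 with the control ratio as a covariate and 0 with the B1 covariate. At DE 500 (5) it was 3 with only the groups compared and 1 with either covariate or without the 3 arrays. At DE 2000 (5) it was 2 with the B1 covariate. For the average over exposures (9) it was 3 with the control ratio and 1 with the B1 covariate. The B1 covariate gave 2 for DE 2000 in OVA and 2 for the DE 2000 interaction (0 each), and the DE 500 interaction (0) had 1 without the 3 arrays.

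Of the ratios, DE 2000 in saline (1) had 0 with no filter, a filter at the 60th percentile, only the groups compared or the replicate block, 3 with array weights or the control ratio, 2 with B1 and 4 without the 3 arrays. DE 500 in saline (0) had 1 with the control ratio and 2 without the 3 arrays. OVA in air (2) had 1 with no filter or the control ratio, 0 with the 60th percentile or B1, and 5 with only the groups compared, array weights or without the 3 arrays. OVA at DE 500 (4) had 2 with the 60th percentile, only the groups compared or the control ratio, 0 with B1 and 1 without the 3 arrays. OVA at DE 2000 (6) had 2 with the 60th percentile or B1, and the average (4) had 2 with the 60th percentile and 1 with B1. The 60th percentile keeps fewer member ratios. The DE 2000 interaction (1) had 0 with no filter, the 60th percentile, only the groups compared or the replicate block, and 2 with B1; DE 2000 in OVA (0) had 1 with B1. The replicate block changed no other count by over 1.5 times; residuals of arrays with the same number correlated at 0.03 on average (-0.43 to 0.59), so the numbers were not used as pairs.

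With the B1 covariate Tmod3 1423088_at turned to -0.43 for OVA at DE 2000 and -0.038 on average, 1423089_at to -0.50 on average and its ratio to 1438556_a_at to -0.46 at DE 2000 and -0.16 on average; Pgap2 1424616_s_at turned to 0.0061 on average. B1 itself differed between the arms by -1.43.

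Leaving out single arrays, the probe set counts ran from 0 to 2 in both saline comparisons, 1 to 6 for OVA in air, 3 to 7 at DE 500, 4 to 6 at DE 2000 and 9 to 9 on average, and from 0 to 1 and 0 to 2 for the interactions. The ratio counts ran from 0 to 2 in DE 2000 saline, 1 to 2 in air, 3 to 4 at DE 500, 4 to 5 at DE 2000 and on average, and 0 to 1 for the DE 2000 interaction. The OVA difference of the control ratio ran from -1.86 to -1.38. Of the 12 correlations with the control ratio (2 past 0.05), 0 passed without the 2 farthest arrays, with actin alone or on deviations from group means, and 0 to 3 passed when single arrays were left out. Dim probe sets such as Snrpd3 1422885_at limit what can be read.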
